A study of Mus musculus with 24 samples.

Results

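The blood vessels of the brain were followed through 35 genes, 25 of endothelial cells and 10 of mural cells, chosen by name as markers of these cells and of the blood-brain barrier. All 35 have a row in both deposited count tables, which hold 25793 gene symbols. The genes were read in RNA-seq libraries of cerebellum (CB) and hippocampus (HC) tissue from male mice. There were 24 libraries in 8 groups of 3, taken at postnatal day 14 (P14) or 35 (P35). The 16GsoT/T mice are homozygous for 16Gso, a reciprocal translocation of chromosomes 5 and 8 that was found in a genetic screen, so all of them carry the same rearrangement. The controls were age-matched wild type (WT) mice. The labels give C57BL/6 as the strain, whereas the study describes a C57BL/6 x C3H/He (B6C3) background and the WT library names, other than those of P14 CB, carry B6C3. The homozygotes came from homozygous parents, so mutants and WT were not littermates, and neither group was treated.

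Brain endothelial cells form the wall of the capillaries and close it with tight junctions, chiefly of claudin and occludin, while carriers and efflux pumps in their membranes govern what crosses. Pericytes wrap the capillaries and are recruited through the platelet-derived growth factor receptor, and smooth muscle cells ring the arterioles with a contractile apparatus of actin and myosin. Vascular endothelial growth factor and the angiopoietin receptor sustain endothelial cells, ETS and SOX factors keep their gene program, and Wnt signals hold the barrier state in the brain.

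Promoters of the genes are shown for 2 short motifs that belong to these factor families, GGAAGT (ETS) and AACAAT (SOX), because most of the genes moved together in the P35 CB. RefSeq promoters (GRCm38.p6), each running from 250 bases before the start to 50 bases after it, were found for 22 of the 35 genes. The other 13 genes are Pecam1, Cdh5, Esam, Icam2, Ramp2, Sox17, Sox18, Vwf, Nos3, Mmrn2, Pdgfrb, Myh11 and Tagln. On either strand, GGAAGT was found in 10 of 23 promoters of 15 endothelial genes (43.5%), among them those of Flt1, Kdr, Tie1, Eng and Egfl7, against 23.8% of all 32851 promoters. AACAAT was found in 4 of the 23 (17.4%), those of Slco1a4, Tek, Emcn and Erg, against 10.7% of all. Neither motif was found in the 7 promoters of mural genes. The CArG box, the binding motif of serum response factor in smooth muscle genes, gave no match in the members' promoters when its strict form was searched with no letter off, against 1.63% of all promoters. With 1 letter off allowed it was in 8 of the 23 endothelial (34.8%), 2 of the 7 mural (28.6%, Acta2 and Kcnj8) and 21.1% of all promoters, and the Acta2 promoter held 2 such stretches. TATAAA was in 6 of the 23 endothelial (26.1%), 1 of the 7 mural (14.3%) and 13.6% of all promoters. Both strands were searched, no exact match of one motif overlapped a match of another, and the matches of TATAAA in the Vtn promoter overlap each other. Such matches describe letters in a window and are no evidence of binding. Of the 6 sequences that follow, those of Slco1a4, Tek, Rgs5 and Acta2 are shown because these genes had large differences in P35 CB, and those of Tie1 and Flt1 as receptors whose promoters hold GGAAGT. Capitals mark an exact match of the ETS, SOX or TATAAA letters as read on either strand, which the sequences of Rgs5 and Acta2 do not hold. The stretches of Acta2 with 1 letter off the CArG box are not in capitals.
Slco1a4, chr6:141856171-141856470, minus strand: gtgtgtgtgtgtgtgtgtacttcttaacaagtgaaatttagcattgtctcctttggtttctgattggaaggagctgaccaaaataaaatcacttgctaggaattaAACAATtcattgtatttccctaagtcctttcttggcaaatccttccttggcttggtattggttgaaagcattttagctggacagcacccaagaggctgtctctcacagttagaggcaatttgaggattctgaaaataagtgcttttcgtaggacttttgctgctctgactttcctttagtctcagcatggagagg
Tek, chr4:94739039-94739338, plus strand: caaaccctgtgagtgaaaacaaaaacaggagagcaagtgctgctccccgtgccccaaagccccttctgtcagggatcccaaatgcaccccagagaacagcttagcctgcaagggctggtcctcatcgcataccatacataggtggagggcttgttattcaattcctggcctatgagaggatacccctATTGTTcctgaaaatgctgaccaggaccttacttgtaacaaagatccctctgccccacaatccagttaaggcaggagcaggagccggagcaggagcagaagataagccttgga
Tie1, chr4:118489800-118490099, minus strand: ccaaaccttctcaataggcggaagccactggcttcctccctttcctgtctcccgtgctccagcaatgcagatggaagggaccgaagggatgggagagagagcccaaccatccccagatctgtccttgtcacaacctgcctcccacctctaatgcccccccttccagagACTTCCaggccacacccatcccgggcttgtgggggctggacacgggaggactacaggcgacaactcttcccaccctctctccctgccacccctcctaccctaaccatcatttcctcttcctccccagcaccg
Flt1, chr5:147725962-147726261, minus strand: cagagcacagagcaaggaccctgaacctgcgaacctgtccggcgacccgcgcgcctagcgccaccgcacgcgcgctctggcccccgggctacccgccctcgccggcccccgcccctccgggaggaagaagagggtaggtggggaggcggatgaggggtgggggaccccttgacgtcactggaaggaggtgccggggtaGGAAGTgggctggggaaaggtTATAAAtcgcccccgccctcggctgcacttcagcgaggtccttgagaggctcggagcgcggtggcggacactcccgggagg
Rgs5, chr1:169655251-169655550, plus strand: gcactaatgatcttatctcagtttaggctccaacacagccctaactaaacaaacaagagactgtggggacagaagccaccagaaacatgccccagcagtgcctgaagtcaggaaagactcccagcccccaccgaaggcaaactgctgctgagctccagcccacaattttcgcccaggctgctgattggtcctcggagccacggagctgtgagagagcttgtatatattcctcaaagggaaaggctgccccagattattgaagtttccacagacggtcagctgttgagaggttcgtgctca
Acta2, chr19:34255324-34255623, minus strand: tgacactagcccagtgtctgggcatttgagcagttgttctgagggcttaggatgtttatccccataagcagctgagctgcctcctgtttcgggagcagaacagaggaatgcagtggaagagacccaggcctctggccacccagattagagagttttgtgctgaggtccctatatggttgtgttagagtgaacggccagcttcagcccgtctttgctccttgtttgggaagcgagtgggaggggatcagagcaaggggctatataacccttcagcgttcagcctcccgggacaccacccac

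Per kilobase of exon, so that genes can be compared, the levels in the P35 CB of WT mice ran from 31.3 ± 3.10 CPM per kb (SD, n = 3) for Vtn, the matrix protein vitronectin made by pericytes, to 0.829 ± 0.200 CPM per kb for Erg, an ETS factor. CPM are the deposited counts scaled to a common library size, after one TMM scaling of the 24 libraries. After Vtn came Ly6c1, a surface antigen of endothelium, at 25.8 ± 1.31 CPM per kb. Slco1a4 (19.1 ± 0.897), Slco1c1 (18.8 ± 3.01) and Cldn5 (18.4 ± 1.12 CPM per kb) followed, and these 3 neighbours did not differ beyond their spread. In the P14 CB of WT mice, Vtn (23.5 ± 3.52), Cldn5 (21.8 ± 2.64) and Rgs5 (19.8 ± 0.707 CPM per kb) were highest. In HC of WT mice, Cldn5 was highest at P14 (38.8 ± 4.92 CPM per kb) and Ly6c1 at P35 (31.1 ± 4.72 CPM per kb). Every member had counts in each library, but some were sparse, and the lowest single count was 1 read, for Des in a P35 HC library.

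Reads on genes per library numbered 22893603 to 40564789 in P14 CB, 10572358 to 13245150 in P14 HC, 5140843 to 7974640 in P35 CB and 2563968 to 4127478 in P35 HC. Wbscr17 (Galnt17), next to the breakpoint on chromosome 5, was lower in the libraries labelled 16GsoT/T in all 4 sets, without overlap (18.2 to 22.1 against 39.8 to 43.2 CPM in P14 CB). Marker genes of the dissected regions matched the labels, with 9 cerebellar genes summing to 7437 CPM or more in each CB library and 584 CPM or less in each HC library. Lanes differed between genotypes in P14 HC, and their effect cannot be told apart from that of genotype. In P35 HC, 2 of the 3 WT libraries (W481 and W483) had dual indexes and all others single ones. In P35 CB, the reads assigned to genes made up 37.6 to 37.7% in WT and 42.3 to 42.4% in 16GsoT/T. Whatever lies behind this difference between libraries cannot be told apart from genotype.

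In P35 CB, the 35 vascular genes as a set were lower in 16GsoT/T. Of the 25 endothelial genes, 22 were called lower and none higher, and all 10 mural genes were called lower. A gene was called when its adjusted p, from edgeR's quasi-likelihood test with Benjamini-Hochberg adjustment over all genes tested, was at most 0.05. In this comparison 35.3% of the 14004 genes tested were called, 18% lower and 17.4% higher. The 3 genes not called were Ramp2, Erg and Vwf. The log2 fold changes (16GsoT/T minus WT) of all 35 were negative, with a median of -0.92 over the endothelial and -0.94 over the mural genes against -0.00399 over all genes tested. The 2 groups of libraries did not overlap for 22 endothelial and 10 mural genes, where 47.6% of all genes tested did not overlap. Without TMM scaling the calls over all genes split into 1842 higher and 2994 lower, against 2432 and 2515 with it, and 23 endothelial and all 10 mural genes were called lower. Under DESeq2 18 endothelial and 8 mural genes were called lower. When 1 of the 6 libraries was left out, 18 to 20 endothelial and 7 to 10 mural genes were called, and Icam2, Mmrn2 and Ocln in 1 of the 6 fits, Abcc9 and Emcn in 2, Tagln in 3, Des in 4, and Flt1 and Kcnj8 in 5. With a fold change of at least 1.5 required as well, 28 of the 35 were called. In bulk tissue, fewer cells of a type and less RNA per cell cannot be told apart. The share of reads on genes also separated the genotypes in these libraries, and its part in the result was not tested.

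The summed level shows the size of the difference in total CPM, in which genes of high level weigh most. In P35 CB of WT mice these were Slco1a4 (73.5 CPM) and Slco1c1 (51.1 CPM) in the endothelial sum. In the mural sum they were Vtn (63.6 CPM) and Rgs5 (45.8 CPM). The endothelial genes summed to 435, 449 and 463 CPM in the WT libraries of P35 CB and to between 227 and 248 CPM in 16GsoT/T, which is 53.5% of the WT mean. Mural genes summed to between 187 and 199 CPM in WT and to between 97.0 and 104 CPM in 16GsoT/T, or 52.7% of WT. The ratio of mural to endothelial sums lay between 0.408 and 0.458 in the WT libraries and between 0.394 and 0.457 in 16GsoT/T, which overlap. In P14 CB, where the same sums were 435 and 431 CPM for endothelial genes and 212 and 236 CPM for mural genes (WT and 16GsoT/T means), the groups overlapped.

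**Figure D1:**
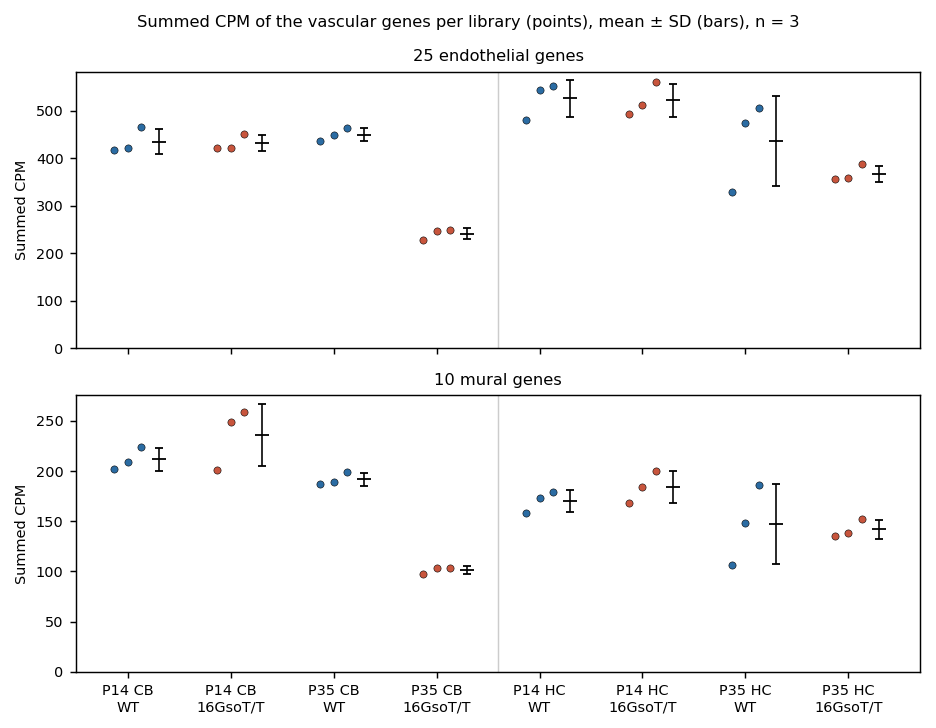
Summed CPM of the 25 endothelial genes (upper panel) and the 10 mural genes (lower panel) in each library of the 8 groups, with WT in blue and 16GsoT/T in red; bars give the mean ± SD (n = 3). The 3 libraries of 16GsoT/T in P35 CB, between 227 and 248 CPM for the endothelial genes, lie below all WT libraries of P35 CB, and the other sets overlap.

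Junction and adhesion genes all fell in P35 CB (7 of 7 called, median log2 fold change -0.80). Pecam1, the platelet endothelial adhesion molecule that joins neighbouring endothelial cells, measured 17.8, 13.5 and 16.1 CPM in WT and 10.7, 9.22 and 8.04 CPM in 16GsoT/T. Each 16GsoT/T library was below each WT library, and the log2 fold change was -0.77 ± 0.16 (SE, adjusted p = 0.00299, edgeR). Cldn5, the claudin that seals the tight junction of the barrier (chr16:18776940-18778353, NCBIM37), measured 27.8, 24.6 and 25.8 CPM in WT and 12.3, 10.5 and 14.7 CPM in 16GsoT/T. Its values fell by 1.07 ± 0.14 on the log2 scale, without overlap (adjusted p = 0.000108). Icam2, an adhesion molecule for leukocytes, had the largest change of this group, -1.34 ± 0.43 (adjusted p = 0.0295), with 1.74, 2.09 and 2.06 CPM in WT and 1.38, 0.426 and 0.596 CPM in 16GsoT/T, but no library held more than 17 of its reads. Ocln (occludin, of the tight junction) changed least, by -0.33 ± 0.11 (adjusted p = 0.0295). Cdh5, the cadherin of endothelial junctions, fell by 0.77, Esam by 0.80 and the surface sialomucin Emcn by 0.92 on the log2 scale.

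Receptors of vascular signals fell in 5 of 6 cases. Tek, the receptor of angiopoietins (chr4:94405980-94541667, NCBIM37), measured 14.7, 12.7 and 15.7 CPM in WT and 5.53, 5.96 and 5.81 CPM in 16GsoT/T. The groups stood far apart, with a log2 fold change of -1.32 ± 0.16 (adjusted p = 8.49e-05, edgeR). The VEGF receptor Kdr fell by 0.94 ± 0.17 and Flt1, which binds VEGF with little signalling, by 0.47 ± 0.12. Tie1, a partner of Tek, fell by 0.90 and Eng, a co-receptor of TGF-beta and BMP, by 0.74. Ramp2, which makes the adrenomedullin receptor with Calcrl, was the exception: it measured 8.88, 11.7 and 13.5 CPM in WT and 8.82, 14.6 and 9.83 CPM in 16GsoT/T, with a log2 fold change of -0.03 (95% interval -0.45 to 0.39, adjusted p = 0.929). In the GENCODE vM1 annotation, 33.4% of Ramp2's exon length is shared with the neighbour Vps25 on the same strand. Reads there may have been left uncounted, and the part of this overlap in the value of Ramp2 was not tested.

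The 4 transporters of the barrier fell, by a median of 1.13 on the log2 scale. Slco1a4, an organic anion transporter of brain capillaries (chr6:141753961-141804720, NCBIM37), had the firmest difference of all the genes. It measured 74.1, 69.8 and 76.6 CPM in WT and 29.6, 24.3 and 24.4 CPM in 16GsoT/T, and the 16GsoT/T mean was 35.1% of the fitted WT level. The log2 fold change was -1.51 ± 0.09 (adjusted p = 2.7e-07, edgeR). Slco1c1, a carrier of thyroxine, fell by 1.14 ± 0.14, the efflux pump Abcg2 by 1.12 ± 0.14 and the efflux pump Abcb1a (P-glycoprotein) by 0.92 ± 0.11.

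Of the 3 transcription factors, the SOX factors fell. Sox17, which acts in arterial and barrier endothelium (chr1:4481009-4486494, NCBIM37), had the largest log2 fold change among the 35 genes, -1.75 ± 0.34 (adjusted p = 0.00192, edgeR). It measured 4.12, 6.77 and 5.43 CPM in WT and 1.04, 1.28 and 2.53 CPM in 16GsoT/T. Its reads numbered 6, 9 and 17 in the 16GsoT/T libraries, and its fall exceeded that of Rgs5 by less than its SE. Sox18 measured 6.18, 3.81 and 5.43 CPM in WT and 2.77, 1.84 and 1.49 CPM in 16GsoT/T, which do not overlap, with a log2 fold change of -1.35 ± 0.31 (adjusted p = 0.0051). Erg did not pass the test (2.54, 3.69 and 2.43 against 2.25, 2.98 and 1.34 CPM, log2 fold change -0.44 ± 0.34, adjusted p = 0.349), and its interval ran from -1.10 to 0.23.

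Among the secreted, enzyme and surface genes, 4 of 5 were called lower. Nos3, the endothelial nitric oxide synthase, fell by 1.04 ± 0.22, the secreted Egfl7 by 0.96 ± 0.19, the matrix protein Mmrn2 by 0.88 ± 0.30 and Ly6c1 by 0.82 ± 0.14 on the log2 scale. Vwf, the clotting factor of endothelial granules, measured 11.9, 18.2 and 11.98 CPM in WT and 8.13, 12.2 and 8.64 CPM in 16GsoT/T. These groups overlap, and its log2 fold change of -0.56 ± 0.21 had an adjusted p of 0.0527. Nos3 shares 25.2% of its exon length with Gm15587 on the opposite strand, and the strand option of the counting is not given in the sources used here.

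Mural genes were called lower without exception. Rgs5, a regulator of G-protein signals in pericytes (chr1:171585632-171625944, NCBIM37), measured 51.4, 34.7 and 51.3 CPM in WT and 12.5, 13.6 and 15.9 CPM in 16GsoT/T. Its log2 fold change of -1.70 ± 0.16 (adjusted p = 1.16e-05, edgeR) was the largest among the mural genes, with no overlap. Kcnj8, the pore of the potassium channel of pericytes, measured 3.49, 4.92 and 5.24 CPM in WT and 2.59, 0.993 and 2.23 CPM in 16GsoT/T, a log2 fold change of -1.26 ± 0.34 (adjusted p = 0.0119). It had 7 to 15 reads in the 16GsoT/T libraries. Pdgfrb, the receptor through which pericytes are recruited, had a small spread in WT (22.0, 22.1 and 22.1 CPM) and measured 15.05, 16.6 and 14.7 CPM in 16GsoT/T. It fell by 0.53 ± 0.11 (adjusted p = 0.00383), the smallest change of the mural genes. Abcc9, which pairs with Kcnj8, fell by 0.69, Vtn by 0.76 and Notch3, the Notch receptor of mural cells, by 0.58 on the log2 scale.

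The 4 smooth muscle genes fell by a median of 1.29, against 0.72 for the 6 pericyte genes. The difference between these 2 groups was not tested. Acta2, the smooth muscle actin (chr19:34315580-34329826, NCBIM37), measured 3.49, 5.78 and 5.06 CPM in WT and 0.692, 2.13 and 1.79 CPM in 16GsoT/T, a log2 fold change of -1.61 ± 0.36 (adjusted p = 0.00412, edgeR). Myh11, the smooth muscle myosin, measured 5.07, 6.15 and 7.68 CPM in WT and 2.42, 2.41 and 1.04 CPM in 16GsoT/T, a log2 fold change of -1.69 ± 0.32 (adjusted p = 0.00144). For both genes every 16GsoT/T library was below every WT library, but the 16GsoT/T libraries held only 4 to 15 reads of Acta2 and 7 to 17 of Myh11. Tagln, an actin-bundling protein, fell by 0.91, and Des, the intermediate filament desmin, by 0.96.

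**Figure D2:**
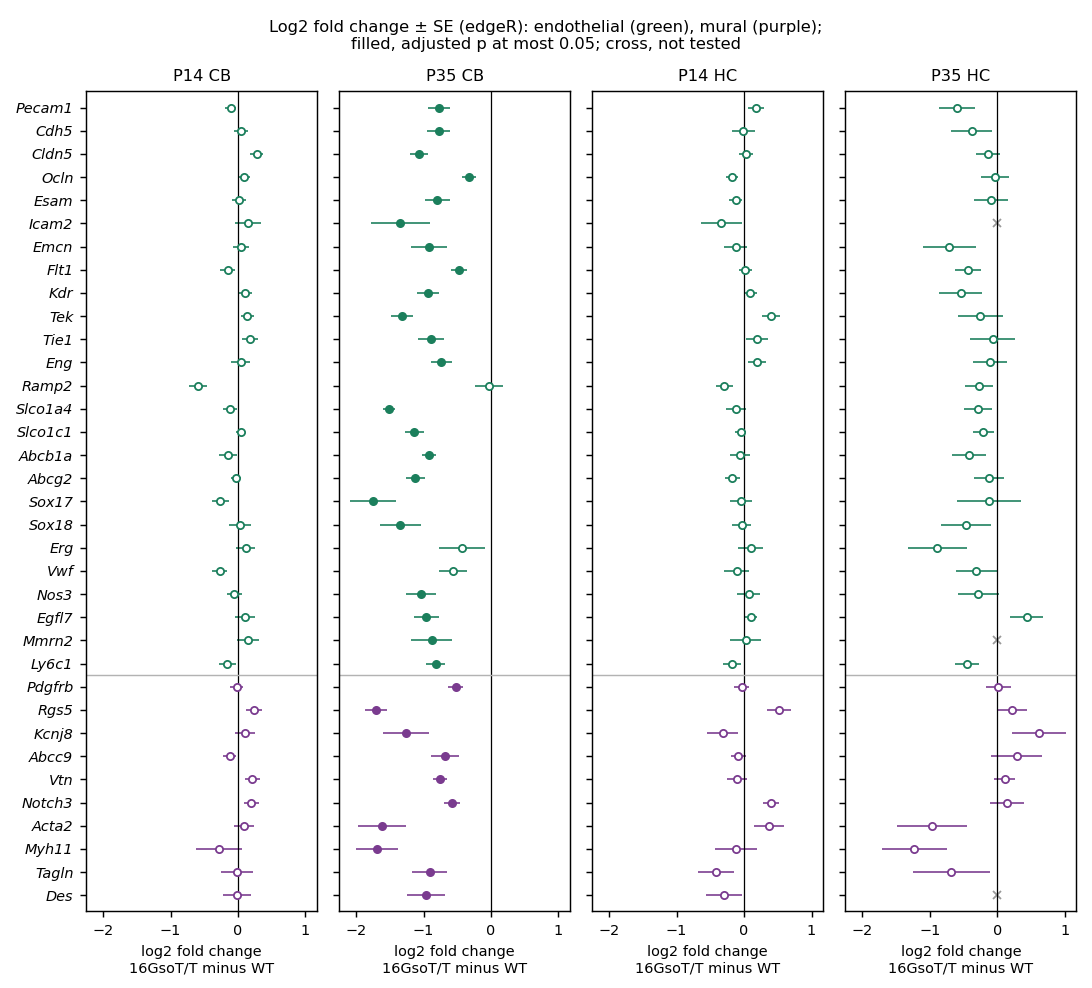
Log2 fold change ± SE (16GsoT/T minus WT) of the 25 endothelial (green) and 10 mural (purple) genes in the 4 comparisons; filled points were called by edgeR at an adjusted p of at most 0.05, and crosses were not tested. In P35 CB every point lies left of 0 and 32 of 35 are filled; in the other comparisons none is filled.

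Further genes of the vessel wall, from lists written for this work, were called lower in P35 CB more often than higher. Over all genes tested 18% were called lower and 17.4% higher. Of 17 further endothelial genes tested, 12 were called lower and 1 higher (median -0.87 on the log2 scale). Clec14a, Eltd1 and Fli1 had the largest falls, at -1.63, -1.20 and -1.17, and Slc9a3r2 was 0.41 higher. Of 16 further mural and contractile genes, 7 were called lower (median -0.74), led by Atp13a5 (-1.30), Tbx18 (-1.27) and Foxd1 (-1.14). Of 19 tested genes of the barrier and of Wnt signalling, 8 were called lower (median -0.51), with Lsr, Lef1 and Reck at -1.002, -0.97 and -0.83, and 14 of the 19 were negative. Of 19 vascular ligands and partner receptors tested, 8 were called lower (median -0.35) and Vegfb was 0.26 higher. Summed, the further endothelial genes gave 637 to 681 CPM in WT and 540 to 542 CPM in 16GsoT/T. The further mural genes gave 202 to 217 and 153 to 189 CPM, and the ligands and receptors 364 to 380 and 286 to 294 CPM. Barrier and Wnt genes summed to 1682 to 1694 CPM in WT and 1615 to 1704 CPM in 16GsoT/T, which overlap.

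Among these ligands, the growth factor Vegfa, made by neurons and glia, measured 115.9, 112.7 and 108.2 CPM in WT and 49.98, 64.3 and 57.2 CPM in 16GsoT/T in P35 CB, a log2 fold change of -0.98 ± 0.09 (adjusted p = 5.74e-06, edgeR). In P14 CB its log2 fold change was -0.21 ± 0.07 (adjusted p = 0.31). Pdgfb, the ligand by which endothelial cells attract pericytes, measured 11.4, 12.1 and 9.74 CPM in WT and 3.29, 4.54 and 5.96 CPM in 16GsoT/T, a log2 fold change of -1.27 ± 0.22 (adjusted p = 0.000779). Neither gene overlapped between genotypes. Among arterial genes 2 of 7 were called lower (Gkn3 and Fbln5) and 1 higher (Hey1), with a median of -0.55. Venous genes (Slc38a5 called, 1 of 6) and fenestrated genes (Ehd3 higher, 1 of 4) had medians of -0.12 and 0.01. Arterial genes summed to 100 to 105 CPM in WT and 99.6 to 119.5 CPM in 16GsoT/T. Venous genes summed to 148 to 160 and 143 to 154 CPM, and fenestrated genes to 366 to 388 and 387 to 441 CPM. Each of these sums overlapped between genotypes. Over all genes tested 35.3% were called, and these lists are too short to be set against that share.

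Markers of other tissue moved with genotype in P35 CB too, and their part in the result was not tested. Of 14 fibroblast and meningeal genes all had a negative log2 fold change and 8 were called lower (median -0.46), with summed levels of 369 to 400 CPM in WT and 252 to 304 CPM in 16GsoT/T. Choroid plexus genes varied most within WT, at 24.9 to 2160 CPM summed against 143 to 392 CPM in 16GsoT/T, and 3 of 11 were called lower (median -1.62). Of 10 pan-neuronal genes 6 were called higher (median 0.47). Red blood cell genes summed to 121 to 170 CPM in WT and 176 to 285 CPM in 16GsoT/T, with 2 of 5 tested called higher and 1 lower. Of 11 microglial genes 6 were negative and 1 was called lower (median -0.02). Astrocyte (5 of 12 called, 3 higher) and oligodendrocyte genes (3 of 10 called lower) had medians of -0.02 and -0.09. These counts stand beside 18% called lower and 17.4% called higher over all genes tested. Oligodendrocyte genes summed to 8270 to 8592 CPM in WT and 6697 to 10181 CPM in 16GsoT/T.

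In P14 CB none of the 35 genes was called, where edgeR called 0.506% of 15993 genes. DESeq2 called 1 of the 35, and 3 had an unadjusted p under 0.05. The medians were 0.04 for endothelial and 0.03 for mural genes, and 15 of the 25 and 5 of the 10 were positive. The 6 WT and 16GsoT/T libraries did not overlap for 3 endothelial genes, against 13.7% of all genes tested. Ramp2 measured 16.4, 18.4 and 22.4 CPM in WT and 11.8, 11.9 and 14.2 CPM in 16GsoT/T (log2 fold change -0.59 ± 0.13, adjusted p = 0.108), the other 2 being Sox17 (-0.26) and Vwf (-0.27). With 3 against 3 libraries, an exact permutation test of a single value cannot give a p below 0.1, so none was used.

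Genes with large differences in P35 CB were not called at P14. In P14 CB the log2 fold change was -0.12 ± 0.10 for Slco1a4, 0.14 ± 0.10 for Tek, 0.24 ± 0.12 for Rgs5 and -0.29 ± 0.34 for Myh11, each with groups that overlap, and -0.26 ± 0.13 for Sox17, whose groups did not (adjusted p = 0.611, edgeR). Pecam1 measured 19.4, 22.1 and 20.9 CPM in WT and 19.7, 18.3 and 20.1 CPM in 16GsoT/T (log2 fold change -0.11 ± 0.09). Cldn5 was 28.8, 28.5 and 35.1 against 34.4, 38.7 and 38.8 CPM (0.28 ± 0.09, adjusted p = 0.376). Pdgfrb was 21.1, 21.2 and 25.4 against 23.7, 20.4 and 22.7 CPM (-0.02 ± 0.10), and Acta2 was 4.10, 4.44 and 4.78 against 5.09, 3.96 and 5.05 CPM (0.09 ± 0.15). Pecam1, Pdgfrb and Acta2 overlapped between genotypes, and so did Cldn5. Slc2a1, the glucose carrier of the barrier, was called lower at P14 in both regions, 1 of 20 barrier and Wnt genes in P14 CB (67.5 ± 7.53 CPM in WT, 45.8 ± 4.35 CPM in 16GsoT/T, log2 fold change -0.56 ± 0.10, adjusted p = 0.0432, edgeR), where 0.413% of all genes were called lower. Whether this call near the threshold holds without 1 library was not examined. Such fits of P14 CB called 33 to 181 genes in all, against 81 with all libraries.

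In P14 HC none of the 35 was called either, against 0.814% of 15227 genes, and 4 had an unadjusted p under 0.05. DESeq2 called none. The medians were -0.04 for endothelial and -0.10 for mural genes, and 3 of the 35 had groups that did not overlap, against 23.6% of all genes. Pecam1 measured 17.7, 14.5 and 19.4 CPM in WT and 20.7, 19.6 and 18.2 CPM in 16GsoT/T (log2 fold change 0.17 ± 0.12, adjusted p = 0.485). Cldn5 was 58.6, 46.8 and 59.1 against 61.0, 54.7 and 53.2 CPM (0.03 ± 0.10). Pdgfrb (24.1, 23.8 and 28.4 against 27.4, 24.6 and 22.8 CPM) and Acta2 (8.33, 5.16 and 4.67 against 8.83, 7.01 and 7.65 CPM) overlapped too, with log2 fold changes of -0.03 and 0.37. Of the 20 barrier and Wnt genes, 2 were called lower, Slc2a1 (120.7 ± 14.3 CPM in WT, 85.8 ± 3.81 CPM in 16GsoT/T, adjusted p = 0.0482) and Mfsd2a, the lipid carrier that restrains transcytosis (70.4 ± 5.598 and 48.1 ± 2.87 CPM, adjusted p = 0.0282). Both gave groups without overlap, at log2 fold changes of -0.50 and -0.56, where 0.453% of genes were called lower. Whether these 2 calls hold without 1 library was not examined. Such fits of P14 HC called 13 to 114 genes in all, against 124 with all libraries. Lane and genotype cannot be told apart in P14 HC.

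At P35, the HC libraries were the shallowest, and the summed endothelial level varied widely between the WT libraries. No member was called, against 0.135% of 13343 genes, 4 had an unadjusted p under 0.05 and DESeq2 called none. Icam2, Mmrn2 and Des were too low to be tested. Of the 23 endothelial genes tested 22 were negative, with a median of -0.28, and 6 of the 9 mural genes were positive (median 0.11). Without 1 library the endothelial median ran from -0.52 (without N10) to -0.11 (without W481) and was -0.15 without W483, and the mural median was -0.02 without N10, with 5 of 9 negative. The summed endothelial level was 328 CPM in N10, the WT library with a single index, and 504 and 474 CPM in W481 and W483, against 356 to 387 CPM in 16GsoT/T. With index type as a covariate, so that N10 alone stands for WT, the endothelial median was 0.14 and the mural median 0.67. W483 held the highest levels of Acta2 (26.2 CPM, against 3.39 and 10.1 CPM in N10 and W481), Myh11 (18.9 CPM) and Tagln (21.4 CPM). Without W483 the log2 fold change of Acta2 was 0.01, and with it -0.96 ± 0.51 (adjusted p = 0.638).

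In the same libraries Pecam1 measured 10.2, 19.1 and 16.0 CPM in WT (N10, W481, W483) and 11.1, 10.7 and 8.15 CPM in 16GsoT/T, a log2 fold change of -0.60 ± 0.27 (adjusted p = 0.541, edgeR). Cldn5 was 18.8, 21.01 and 21.7 against 21.2, 17.1 and 17.1 CPM (-0.14 ± 0.18), and Pdgfrb was 16.2, 21.3 and 21.9 against 21.2, 19.5 and 19.1 CPM (0.02 ± 0.19). Acta2 was 7.95, 6.36 and 5.62 CPM in 16GsoT/T. Each of these genes overlapped, and 3 of the 32 tested did not overlap where 12.7% of all genes did not. Choroid plexus genes were higher in 16GsoT/T (6 of 10 called higher, against 0.112% of all genes), with summed levels of 90.9 to 104 CPM in WT and 387 to 1823 CPM in 16GsoT/T. Their part in the vascular values was not tested.

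**Figure D3:**
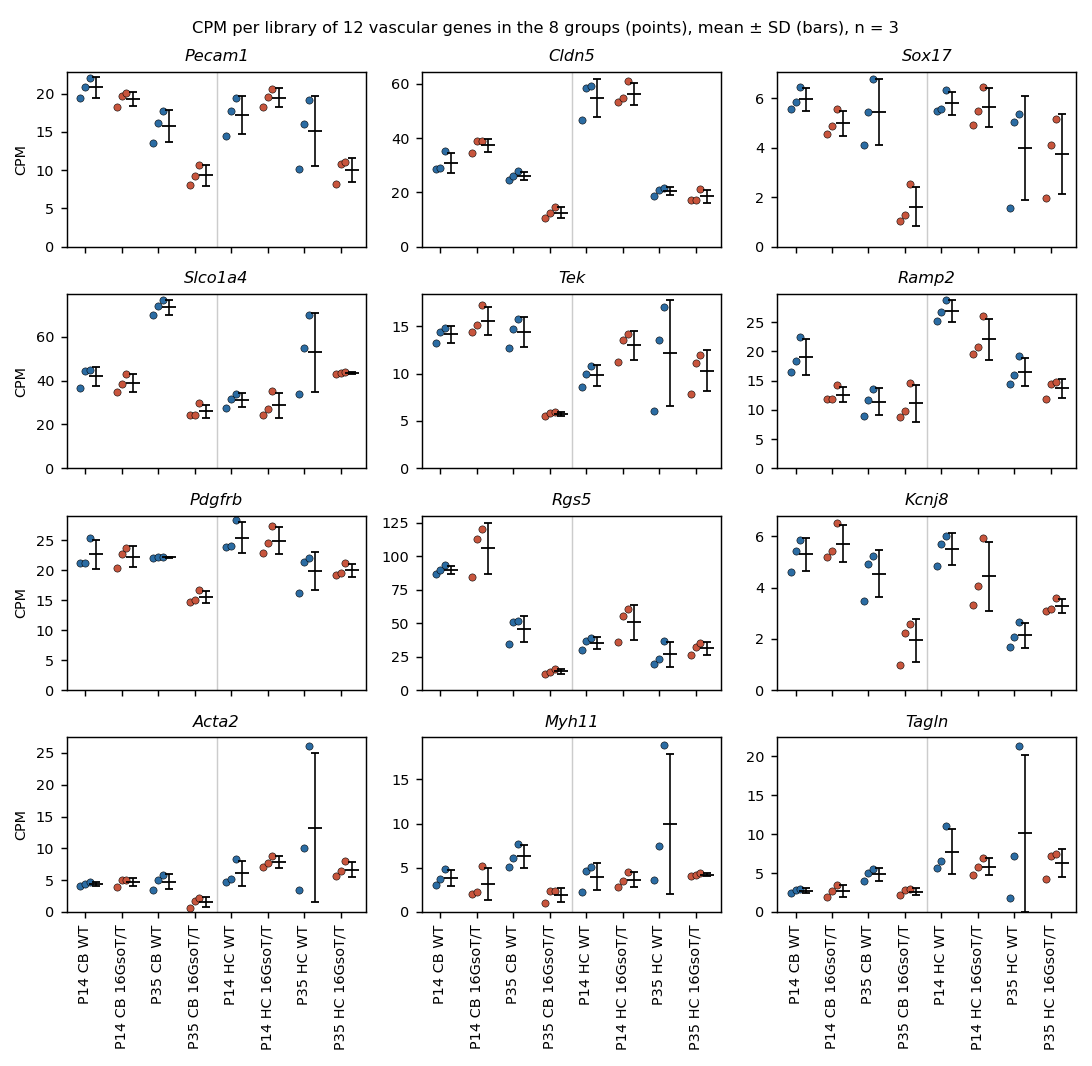
CPM of 12 vascular genes in each library of the 8 groups (WT blue, 16GsoT/T red), with bars for the mean ± SD (n = 3). In P35 CB the 16GsoT/T points lie below all WT points for each gene shown other than Ramp2, and Acta2, Myh11 and Tagln in P35 HC are carried by WT library W483, with 26.2 CPM for Acta2.

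Whether the effect of genotype differed between ages was tested as an interaction over the 12 CB libraries. Of the 35 genes 27 were called, 21 endothelial and 6 mural, and all of them had a more negative effect at P35, where 18.6% of 15784 genes were called and 10.8% in that direction. The largest differences between the effects were those of Rgs5 (-1.94 ± 0.22, adjusted p = 3.22e-05, edgeR), Acta2 (-1.71 ± 0.37), Icam2 (-1.52 ± 0.46), Sox17 (-1.51 ± 0.35), Tek (-1.46 ± 0.18) and Slco1a4 (-1.40 ± 0.14) on the log2 scale. The mural genes called were Pdgfrb, Rgs5, Kcnj8, Vtn, Notch3 and Acta2. The 8 genes not called were Flt1, Ramp2, Erg, Vwf, Abcc9, Myh11, Tagln and Des. Each age was sequenced as its own set of libraries and at its own depth, so age and library set cannot be told apart. Reads on genes made up 65.8 to 66.0% in WT and 64.8 to 68.1% in 16GsoT/T in P14 CB. In P35 CB they made up 37.6 to 37.7% in WT and 42.3 to 42.4% in 16GsoT/T. The part of this split between genotypes in the interaction was not tested. Without TMM scaling the calls over all genes were 937 higher and 2002 lower, against 1233 and 1701. In HC no member was called for this interaction by edgeR or DESeq2, where 0.00666% of 15010 genes were, and 3 had an unadjusted p under 0.05.

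**Figure D4:**
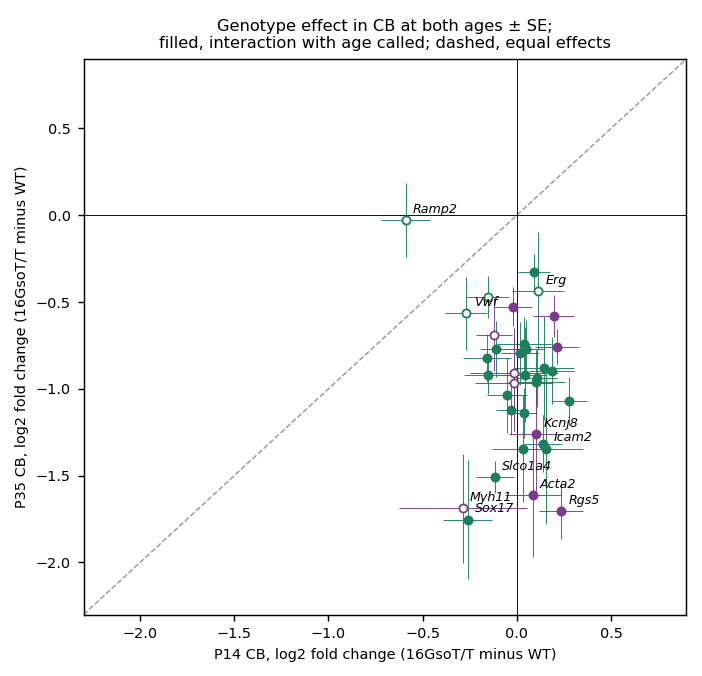
Log2 fold change ± SE (16GsoT/T minus WT) of the endothelial (green) and mural (purple) genes in P14 CB (horizontal) against P35 CB (vertical); filled points had a called interaction of genotype and age, and the dashed line marks equal effects. Of the 35 genes only Ramp2, at -0.59 and -0.03, lies above the dashed line.

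Whether the effect differed between regions was tested in the same way at each age. At P35 8 of 34 tested members were called, 5 endothelial and 3 mural, and all 8 had a higher log2 fold change in HC than in CB, where 9.61% of 14363 genes were called and 5.1% in that direction. They were Rgs5 (1.93 ± 0.30, adjusted p = 0.000691, edgeR), Kcnj8 (1.88 ± 0.52), Egfl7 (1.40 ± 0.33), Slco1a4 (1.23 ± 0.25), Abcg2 (1.001 ± 0.26), Cldn5 (0.94 ± 0.22), Slco1c1 (0.94 ± 0.23) and Vtn (0.87 ± 0.19) on the log2 scale, as HC effect minus CB effect. With index type as a further covariate 17 members were called, and without WT library M29 of P35 CB 5 were. Without TMM scaling the calls over all genes were 1034 higher and 396 lower, against 733 and 647. The share of reads on genes separated the genotypes in P35 CB (37.6 to 37.7% in WT, 42.3 to 42.4% in 16GsoT/T). Its part in these differences between regions was not tested. At P14 no member was called, and neither was any of the 16398 genes tested (0%), by edgeR, and DESeq2 called no member either. At an unadjusted p under 0.05, 1 endothelial gene passed.

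Between the regions of WT mice, fewer of the vascular genes were called than of all genes. Such shares also depend on read counts, which were low for some genes, such as Sox17 (6 to 19 reads in P35 HC of WT). The part of read counts was not tested. At P14, 20 of the 35 were called, 7 higher and 13 lower in CB than in HC, a smaller share than the 77.2% of all 15791 genes (38.8% higher and 38.4% lower). Rgs5 was 89.9 ± 3.22 CPM in CB and 35.2 ± 4.54 CPM in HC (log2 fold change 1.34 ± 0.09, adjusted p = 3.36e-07, edgeR), and Ocln (0.98), Abcc9 (0.75) and Tek (0.51) were the next higher. Egfl7 was 9.43 ± 1.64 CPM in CB and 27.3 ± 3.34 CPM in HC (-1.56 ± 0.14), followed by Tagln (-1.52), Ly6c1 (-1.09) and Slco1c1 (-1.03). At P35 10 of 34 were called, 6 higher and 4 lower, again a smaller share than the 56% of all genes (27.5% higher and 28.5% lower). Des (1.72), Notch3 (1.02), Kcnj8 (1.01) and Ocln (0.71) were higher in CB, and Acta2 (-1.49), Slco1c1 (-0.73), Egfl7 (-0.71) and Ramp2 (-0.60) lower, with WT groups that overlap for Acta2, where W483 alone held 26.2 CPM. Without TMM scaling the calls over all genes were 4845 higher and 3121 lower, against 3819 and 3953 with it, and the median of all genes moved to 0.15. CB and HC libraries were sequenced in different lanes, so region and lane cannot be told apart. At P14 they also differed in the share of reads on genes, 64.8 to 68.1% in CB and 40.7 to 42.3% in HC.

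From P14 to P35 in the CB of WT mice 17 of the 35 genes were called, 10 higher and 7 lower, a smaller share than the 63% of all 15387 genes (32.2% higher and 30.9% lower). The part of read counts in this share was not tested either, and age and library set cannot be told apart. Des rose from 1.55 ± 0.109 to 7.50 ± 2.67 CPM (log2 fold change 2.28 ± 0.25), Tagln by 0.86, Slco1a4 by 0.82 and Ly6c1 by 0.80. The growth receptor Kdr fell from 27.1 ± 1.85 to 13.4 ± 1.54 CPM (-1.002 ± 0.11), Abcc9 by 0.99, Rgs5 by 0.98 and Ramp2 by 0.73. In HC 13 of the 35 were called, 2 higher and 11 lower, where 24.8% of 14402 genes were called, 12.6% higher and 12.2% lower. Slco1a4 (0.75, with groups that overlap) and Flt1 (0.43) rose there, and Icam2 (-1.46), Cldn5 (-1.44), Kcnj8 (-1.37) and Kdr (-1.17) fell. Between 5 and 11 were called in HC when 1 library was left out, 5 of them without N4, 8 without N5 and 6 without N6. No member was called higher without N4, N5, W481 or W483, nor with index type as a covariate, which moved the endothelial median from -0.30 to -0.79 and the mural median from -0.36 to -0.82. Mural genes called lower numbered 4, and 1 with that covariate or without N4, N5, N6 or N10.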

How the data were processed

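The authors mapped the reads with TopHat2 (2.0.8, to NCBIM37 per the submitters' processing notes), counted them per gene with HTSeq (0.6.1) and deposited the raw counts, in one table per age. The strand option and gene annotation of the counting are not given in the sources used here. The study names a KAPA stranded mRNA kit, and the labels a TruSeq stranded kit. Between 37.6 and 68.1% of the reads of a library were on genes, and the summary lines of HTSeq were left out. From the counts, edgeR 4.0.16 in R 4.3.3 was run on the 6 or 12 libraries of each comparison with TMM scaling, its quasi-likelihood test and its own expression filter (min.count 10, min.total.count 15). Adjustment was by Benjamini-Hochberg over all genes tested. The 95% intervals are normal intervals from the SE.

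The 35 genes, the lists and the comparisons were chosen with earlier results of these data known. Values in every library go to at most 5 endothelial and 4 mural called genes per comparison of genotypes, by size of log2 fold change, and always to Pecam1, Cldn5, Pdgfrb and Acta2. Of each other list at most 3 called genes of largest change are named. Ramp2, Erg, Vwf, Slc9a3r2, Vegfb, Tagln in P35 HC and the printed promoters were chosen after their values were seen. In WT comparisons at most 4 called genes are named in each direction. Nothing in the labels states that the mice were from separate litters, so p-values measure the spread between these libraries. Gene positions and exon lengths are from GENCODE vM1 (NCBIM37). The test was tried on simulated data. Alternatives were DESeq2 1.42.0, DESeq2 size factors, no TMM, other count filters, one fit of 12 libraries, index type as a covariate and leaving out each library. Errors cover counting and the spread between libraries only.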

Additional observations from a re-analysis of the deposited data

Results flagged for a closer look

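A gene is given here because the effect of genotype on it differed between ages or regions by a test of the difference itself, an interaction term in edgeR with an adjusted p of at most 0.05. In CB, 27 genes had a more negative effect at P35 than at P14, with adjusted p from 1.24e-05 for Slco1a4 to 0.0392 for Mmrn2. As the effect at P35 minus that at P14 on the log2 scale, the endothelial genes were Pecam1 (-0.67), Cdh5 (-0.83), Cldn5 (-1.36), Ocln (-0.42), Esam (-0.82), Icam2 (-1.52), Emcn (-0.97), Kdr (-1.05), Tek (-1.46), Tie1 (-1.09), Eng (-0.78), Slco1a4 (-1.40), Slco1c1 (-1.19), Abcb1a (-0.78), Abcg2 (-1.10), Sox17 (-1.51), Sox18 (-1.39), Nos3 (-0.99), Egfl7 (-1.07), Mmrn2 (-1.04) and Ly6c1 (-0.67). The mural genes were Pdgfrb (-0.51), Rgs5 (-1.94), Kcnj8 (-1.38), Vtn (-0.97), Notch3 (-0.78) and Acta2 (-1.71). Libraries of the P14 and P35 CB were sequenced as separate sets, and age and set cannot be told apart. The share of reads on genes separated the genotypes in P35 CB but not in P14 CB, and its part was not tested.

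At P35, 8 genes had a higher effect in HC than in CB, with adjusted p from 0.000691 for Rgs5 to 0.0323 for Kcnj8. As the effect in HC minus that in CB on the log2 scale, they were Cldn5 (0.94), Slco1a4 (1.23), Slco1c1 (0.94), Abcg2 (1.001), Egfl7 (1.40), Rgs5 (1.93), Kcnj8 (1.88) and Vtn (0.87). The share of reads on genes separated the genotypes in P35 CB, and its part in these differences was not tested. The WT libraries of P35 HC differed in index type, and 17 genes were called with it as a covariate.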

How the results depend on the processing

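In P35 CB every alternative gave negative medians for the endothelial and mural genes. Among settings that kept all libraries, 18 (DESeq2) to 23 (no TMM scaling) endothelial and 7 to 10 mural genes were called lower. Leaving out 1 library gave 18 to 20 and 7 to 10. In P14 CB, DESeq2 called 1 endothelial gene. For genotype by region at P35, 17 genes were called with index type as a covariate, an alternative chosen after seeing the data, and 5 (without WT M29) to 9 when 1 library was left out. For age in WT HC the range without 1 library was 5 to 11, with 5 without N4, 8 without N5 and 6 without N6. The ranges without 1 library were 22 to 27 for genotype by age in CB, 18 to 21 and 7 to 13 for region in WT at P14 and P35, and 15 to 18 for age in WT CB. The cause was not tested.

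Single genes that were not called turned direction as follows. With index type as a covariate in P35 HC, Cldn5 was 0.01005 and Acta2 0.999 (log2). Without 1 library the lowest and highest values were -0.0684 and 0.0684 for Pdgfrb in P14 CB, -0.29 and 0.11 for Ramp2 in P35 CB, -0.0747 and 0.0905 for Cldn5 in P14 HC, -0.12 and 0.0540 for Pdgfrb in P14 HC, -0.12 and 0.11 for Pdgfrb in P35 HC, and -1.43 (without N10) and 0.00895 (without W483) for Acta2 in P35 HC. Over all values of single genes under the alternatives, 1348 kept direction and side of the threshold, 129 lost the call, 5 gained it and 15 turned direction. Over all genes tested, DESeq2 called 241 in P14 CB (81 by edgeR), 399 in P14 HC (124) and 44 in P35 HC (18). In P35 HC, 134 were called with no filter on low counts, 7 with at least 10 counts in every library and 37 in one fit of 12 libraries, which gave 326 in P14 HC. For genotype by age in HC, DESeq2 called 115 and no filter 27, against 1. For age in WT HC, 1562 were called with index type as a covariate, against 3575. No paired analysis was possible because the groups compared share no replicate numbers. The depth of P35 HC limits genes such as Des, with as few as 1 read in a library.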
